A study of Mus musculus with 6 samples.

Results

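The constitutive subunits of the proteasome and their activators were followed in mouse bone marrow derived macrophages given stearic acid or vehicle. Genes were taken by symbol, as Psma, Psmb, Psmc, Psmd or Psme followed by a number, without the inducible immunoproteasome subunits Psmb8, Psmb9 and Psmb10, and with a mean of at least 1 TPM (each gene's length-scaled share of the library's transcripts) over the 6 libraries. Of 36333 genes listed, 40 matched by name and 39 reached that level. The exception was Psmb11, a subunit of the thymus, with a mean of 0.0032 TPM. The 39 comprised 15 core genes (8 of the alpha ring and 7 of the beta ring), 9 of the base, 8 of the lid, 3 chaperones that assemble the base, and 4 activators.

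The treated group was 3 libraries from wild type C57BL/6 macrophages exposed to 100 µM stearic acid, a saturated fatty acid, for 24 h. The other group was 3 libraries from the same kind of cells given an equal volume of vehicle (ethanol) for 24 h. All cells were grown from bone marrow for 7 days in 10 ng/mL M-CSF, the macrophage growth factor, and replated at 250000 cells per well. Whether the replicates are separate animals or separate cultures is not in the labels; the p-values therefore reflect the scatter of these libraries alone, and that scatter may be technical.

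The proteasome is the protease that degrades proteins tagged with ubiquitin. Its 20S core is a barrel in which outer alpha rings gate the entrance and inner beta rings hold the catalytic sites. The 19S regulatory particle caps the core: its base unfolds substrates with a ring of ATPases, and its lid removes the ubiquitin chain. The activators are other caps that open the core without ubiquitin recognition. Interferon exchanges the catalytic beta subunits for immunoproteasome counterparts, a form that macrophages carry, and the transcription factors NRF1 (Nfe2l1) and NRF2 (Nfe2l2) are known to drive proteasome genes through antioxidant response elements.

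The upstream sequences of 4 members that rose are shown, because 2 of them (Psmb5 and Psmb6) are the core subunits that changed, Psmd12 is the other riser with a motif match, and Psmd8 had the largest difference in the lid. Each is 300 bases from RefSeq on GRCm38.p6, 250 before and 50 after a listed transcript start, written 5′ to 3′ on the gene's strand. Capitals mark matches to TGACNNNGC, the core of the antioxidant response element, searched on both strands.
Psmb5, chr14:54617946-54618245, minus strand: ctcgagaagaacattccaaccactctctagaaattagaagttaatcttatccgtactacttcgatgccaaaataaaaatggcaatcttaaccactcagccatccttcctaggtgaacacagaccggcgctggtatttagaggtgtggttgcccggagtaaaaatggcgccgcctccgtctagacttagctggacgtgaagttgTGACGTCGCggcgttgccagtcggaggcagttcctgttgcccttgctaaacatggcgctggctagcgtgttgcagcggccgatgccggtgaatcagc
Psmb6, chr11:70525107-70525406, plus strand: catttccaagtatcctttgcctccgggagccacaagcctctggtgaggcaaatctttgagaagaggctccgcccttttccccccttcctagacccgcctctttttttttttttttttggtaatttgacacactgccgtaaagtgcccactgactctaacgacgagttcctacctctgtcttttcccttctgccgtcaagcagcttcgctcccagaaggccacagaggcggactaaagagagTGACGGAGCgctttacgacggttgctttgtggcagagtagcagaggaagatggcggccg
Psmd12, chr11:107479278-107479577, plus strand: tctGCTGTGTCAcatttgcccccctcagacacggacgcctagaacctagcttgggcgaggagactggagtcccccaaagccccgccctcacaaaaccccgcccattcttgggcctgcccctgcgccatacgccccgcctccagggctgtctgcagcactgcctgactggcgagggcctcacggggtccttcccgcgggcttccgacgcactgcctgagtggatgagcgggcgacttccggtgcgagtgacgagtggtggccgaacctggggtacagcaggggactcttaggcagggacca
Psmd8, chr7:29180624-29180923, minus strand: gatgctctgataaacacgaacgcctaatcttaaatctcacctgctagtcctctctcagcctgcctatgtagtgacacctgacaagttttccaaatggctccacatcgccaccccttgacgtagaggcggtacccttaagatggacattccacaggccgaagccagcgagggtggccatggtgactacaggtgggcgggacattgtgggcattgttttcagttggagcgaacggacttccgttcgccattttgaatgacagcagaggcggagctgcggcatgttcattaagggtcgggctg

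The match began 47 bases before the start in Psmb5 and 9 bases before it in Psmb6, on the gene's strand, and 247 bases before it in Psmd12, on the opposite strand. Psmd8 had no match in its window. Of the 39 members, 32 had an entry in the promoter table. Their 35 promoters (some genes have several starts) held 6 with a match (17.1%), against 14.6% of the 11829 promoters of tested genes and 12.4% of all 32851 promoters of this length in the table. Of 8 promoters of members that rose 3 had a match, and of 27 promoters of the other members 3 did, those of Psmc6, Psmd9 and Psme4. A match describes letters in the window and was not tested as a binding site.

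Libraries held 63.9 to 76.4 M reads or read pairs with stearic acid and 58.1 to 80.9 M with vehicle, as recovered from the steps between low RPKM values. All 7 macrophage markers were expressed, 4 fell and 1 (Cd68) rose by the test described next, and their summed level was 22964 to 28497 TPM with stearic acid, against 32334 to 33276 TPM with vehicle. Markers of other cells were low: summed levels with stearic acid and with vehicle were 9.25 to 10.1 TPM and 4.72 to 6.80 TPM for 6 neutrophil and progenitor markers (S100a8 and Mmp8 rose, and Ly6g, Elane and Mpo were near 0), 1.17 to 1.66 TPM and 2.55 to 2.91 TPM for 5 lymphoid markers, 0.655 to 0.943 TPM and 0.868 to 1.03 TPM for 4 dendritic markers, and 1.70 to 3.85 TPM and 2.51 to 4.06 TPM for 4 stromal markers. Of the lymphoid markers Cd3e and Nkg7 were at 0 in every library, as were Hbb-bs and Mcpt4 among erythroid and mast cell markers. The part of these markers in the results was not tested.

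With stearic acid, 10 of the 39 members rose and none fell (limma, Benjamini-Hochberg adjusted p under 0.05). The risers were 5 lid subunits (Psmd8, Psmd11, Psmd7, Psmd12 and Psmd3), the catalytic subunits Psmb5 and Psmb6, the base ATPase Psmc4, the chaperone Psmd5 and the activator Psme3. They rose by 1.20-fold to 1.38-fold on the log2(TPM + 1) scale. Across all 11551 genes tested, 12.8% rose and 11.9% fell, 24.7% in all, and the risers made up 25.6% of the members. At an unadjusted p under 0.05 (limma), 17 members were higher and 1, Psme1, was lower. Of all 11551 tested genes, 2232 were higher and 2439 lower at that cut. Psme1 passed the adjusted threshold with quantile normalization and with stearic acid replicate 1 left out.

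The median difference over the 39 members was 0.14 (log2), against -0.03 over all tested genes. Over all tested genes 5280 of 11551 estimates were above 0. Among the members 34 of 39 were (33 to 37 of the members tested under other units, scalings, pseudocounts and filters). With 1 library left out, 29 to 37 were above 0; the median was 0.22 when that was stearic acid replicate 1 and 0.09 when it was replicate 2 of that group. The groups did not overlap in 15 members that were higher with stearic acid and in 1 that was lower, Psme1; over all tested genes 22.8% did not overlap as higher and 21.7% as lower, 44.6% in all. Because TPM values are shares, each difference is relative to all other transcripts, and in bulk RNA fewer cells of a type and less RNA per cell cannot be told apart.

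The count of 10 changed with single libraries. With stearic acid replicate 1, 2 or 3 left out it was 21, 7 and 1. Those fits called 19.2%, 9.17% and 5.06% of all tested genes as higher (43.4%, 17.3% and 8.70% in either direction). With vehicle replicate 1, 2 or 3 left out it was 2, 0 and 0. Those fits called 5.92%, 3.32% and 4.21% of all tested genes as higher (9.29%, 4.76% and 5.44% in either direction). With no filter on low values no member passed, and 3.11% of the 21632 genes then tested were higher. Without both libraries numbered 2 there were 4, Psmb5, Psmb6, Psmd8 and Psmd11, beside 6.66% of all tested genes called as higher.

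**Figure D1:**
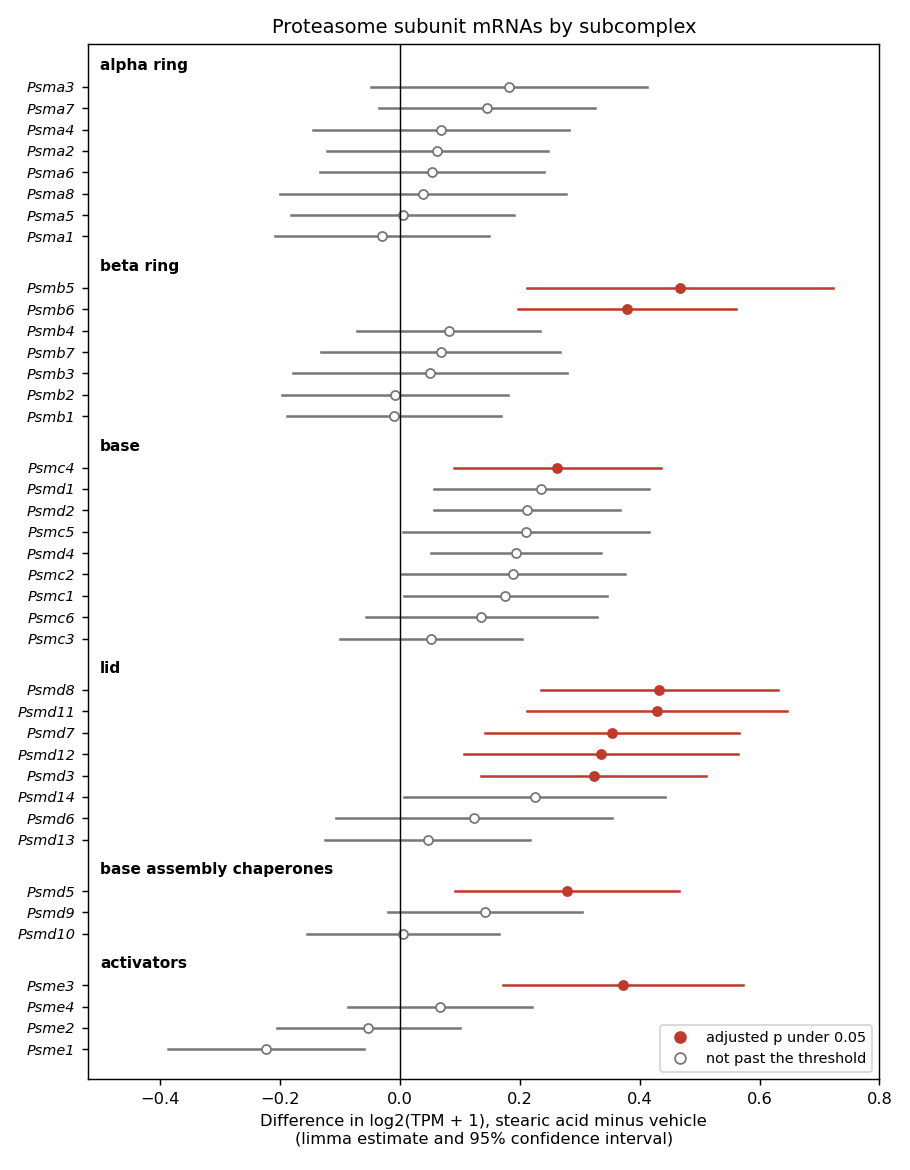
Difference in log2(TPM + 1), stearic acid minus vehicle, for the 39 members by subcomplex. Points are limma estimates, lines are 95% confidence intervals, and filled points passed an adjusted p of 0.05. The 5 filled points of the lid lie between 0.32 and 0.43, and no alpha ring point is filled.

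In the alpha ring, which gates the core, none of 8 genes passed (limma; also none at an unadjusted p under 0.05). Their median difference was 0.06 (log2) and the estimates ran from -0.03 (Psma1) to 0.18 (Psma3). Psma7 had 154, 184 and 172 TPM in stearic acid replicates 1 to 3, against 154, 160 and 146 TPM in vehicle replicates 1 to 3. Stearic acid replicate 1 lay below vehicle replicate 2, so the groups overlapped (log2 0.15, SE 0.08, limma adjusted p = 0.202; without stearic acid replicate 1 it passed, at 0.032).

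Psma3, the least abundant of the 7 widely expressed alpha subunits in these cells, had 91.5, 119 and 109.8 TPM with stearic acid, against 87.9, 101 and 91.7 TPM with vehicle. Its difference of 0.18 (log2) had a 95% confidence interval of -0.05 to 0.41, and it too passed without stearic acid replicate 1 (limma adjusted p = 0.011). Psma5 had 179, 203 and 184 TPM with stearic acid, against 181, 207 and 178 TPM with vehicle, so the stearic acid libraries lay within the range of the vehicle libraries. Its difference was 0.01 (log2, 95% confidence interval -0.18 to 0.19), the estimate nearest to 0 among the 8.

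The other alpha genes had intervals that included 0 as well. Psma2, Psma4 and Psma6 differed by 0.06, 0.07 and 0.05 (log2) and Psma1 by -0.03, with RPKM above 0. Psma2 overlaps AW209491, at a mean of 10.8 TPM, on the same strand. Psma8, a testis paralog of Psma7, was at 2.72 ± 0.405 TPM with stearic acid and 2.60 ± 0.129 TPM with vehicle (SD, n = 3 each); reads shared with Psma7 cannot be told apart from its own. The alpha ring genes other than Psma8 averaged 107 to 326 TPM with stearic acid and 93.6 to 319 TPM with vehicle.

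The beta ring held 2 of the risers among its 7 genes (28.6%), and both encode catalytic subunits. In the core as a whole 13.3% of genes rose, beside 12.8% of all tested genes. Psmb5, the chymotrypsin-like subunit (NCBI gene 19173, chromosome 14, 54614120 to 54617995, GRCm38), had 289, 390.45 and 335 TPM in stearic acid replicates 1 to 3, against 245, 264 and 219.8 TPM in vehicle replicates 1 to 3. Every stearic acid library lay above every vehicle library. Psmb5 rose to 338 ± 50.7 TPM with stearic acid, against 243 ± 22.4 TPM with vehicle (SD, n = 3 each; log2 0.47, SE 0.11, limma adjusted p = 0.021).

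Psmb6, the caspase-like subunit (gene 19175, chromosome 11, 70525324 to 70527858), had 324, 384 and 358 TPM with stearic acid, against 277, 286 and 255 TPM with vehicle. Again the groups did not overlap. By its mean Psmb6 was the highest of the 7 with stearic acid, and with vehicle it lay below Psmb4, Psmb2, Psmb1 and Psmb3. Its difference was 0.38 (log2, SE 0.08, limma adjusted p = 0.014). Psmb5 did not pass when any 1 vehicle library, or stearic acid replicate 3, was left out (adjusted p up to 0.093 by limma), and neither did Psmb6 for stearic acid replicate 3 or for vehicle replicate 2 or 3 (up to 0.0697).

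Psmb7, the trypsin-like subunit and the remaining catalytic member, had 236, 282 and 267 TPM with stearic acid, against 236, 273 and 238 TPM with vehicle. The groups overlapped, and the difference of 0.07 (log2) had a 95% confidence interval of -0.13 to 0.27. Part of Psmb7 lies opposite Nek6, at a mean of 48.01 TPM, and the sources used here do not say whether counting used strand. The 4 structural beta subunits did not pass either: Psmb4 differed by 0.08 (log2), Psmb3 by 0.05, and Psmb1 and Psmb2 by -0.01 each, both of which took the opposite sign with RPKM and with median-of-ratios scaling. Psmb2, with the largest p of the ring, had 261, 307 and 299.97 TPM with stearic acid, against 278, 314 and 280.4 TPM with vehicle. The groups overlapped in part, with stearic acid replicate 1 the lowest and vehicle replicate 2 the highest of the 6 libraries.

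**Figure D2:**
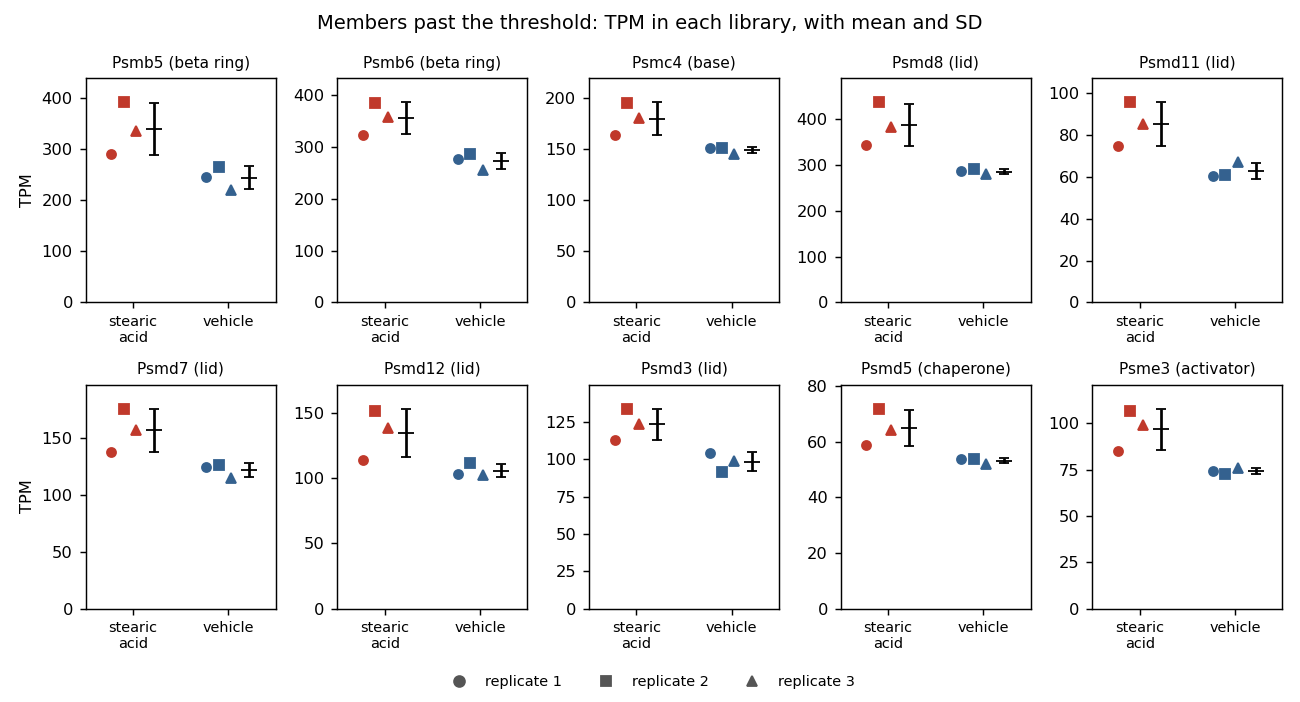
TPM in each library for the 10 members past the threshold, stearic acid left and vehicle right, with mean and SD as the black bar. In all 10 the stearic acid libraries lie above the vehicle libraries, with replicate 2 the highest of the stearic acid libraries and replicate 1 the lowest.

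In the base, 1 of 9 members passed (11.1%, beside 12.8% of all tested genes that rose). All 9 estimates were above 0, from 0.05 (Psmc3) to 0.26 (Psmc4), with a median of 0.19 (log2). Psmc4, an ATPase of the base ring (gene 23996, chromosome 7, 28041702 to 28050092), had 164, 196 and 180.4 TPM with stearic acid, against 151, 152 and 146 TPM with vehicle. The groups did not overlap and the vehicle libraries were close together. Its difference was 0.26 (log2, SE 0.08, limma adjusted p = 0.037), and with 1 library left out it passed only when that was stearic acid replicate 1 (adjusted p up to 0.125 by limma otherwise); it also failed with median-of-ratios scaling.

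The 3 non-ATPase members of the base lay just short of the threshold. Adrm1, a further non-ATPase subunit of the base that the name rule does not cover, passed (log2 0.55, limma adjusted p = 0.0076). Psmd4, a ubiquitin receptor, had 183, 198 and 187 TPM with stearic acid, against 169, 162 and 166 TPM with vehicle, with no overlap (log2 0.19, SE 0.06, limma adjusted p = 0.0511). The scaffolds Psmd2 (log2 0.21, limma adjusted p = 0.0515) and Psmd1 (log2 0.24, limma adjusted p = 0.0577) did not overlap between groups either. Psmd4 and Psmd2 passed with RPKM and with median-of-ratios scaling, Psmd4 and Psmd1 with quantile normalization, Psmd1 with RPKM, and all 3 without stearic acid replicate 1.

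The remaining ATPases did not pass. Psmc5 differed by 0.21 (log2), Psmc2 by 0.19, Psmc1 by 0.18 and Psmc6 by 0.14, and each passed without stearic acid replicate 1 (limma adjusted p of 0.0036 to 0.0404). Psmc3 was the base gene with the largest p, at 247, 279 and 266 TPM with stearic acid, against 259, 258 and 246 TPM with vehicle. Its groups overlapped, and the difference of 0.05 (log2) had a 95% confidence interval of -0.10 to 0.20.

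The lid had the most risers, 5 of its 8 members (62.5%, beside 12.8% of all tested genes), and a median difference of 0.33 (log2). Sem1, a lid subunit that the name rule does not cover, did not pass (log2 -0.09, limma adjusted p = 0.481). Psmd8 (gene 57296, chromosome 7, 29174187 to 29180673), a structural subunit of the lid, had 344, 436 and 382 TPM with stearic acid, against 287, 290.4 and 279 TPM with vehicle. The vehicle libraries were close together and all stearic acid libraries lay above them. It rose to 387 ± 46.3 TPM, against 285 ± 5.82 TPM with vehicle (SD, n = 3 each; log2 0.43, SE 0.09, limma adjusted p = 0.012).

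Psmd11 (gene 69077, chromosome 11, 80428615 to 80473248), a scaffold subunit of the lid whose raised level in human stem cells is known to go with more assembled proteasomes, had 74.6, 95.4 and 85.1 TPM with stearic acid, against 60.3, 60.7 and 67.0 TPM with vehicle. The groups were apart, and vehicle replicate 3 came nearest to the stearic acid libraries. The difference was 0.43 (log2, SE 0.10, limma adjusted p = 0.017).

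The other lid risers are also scaffold subunits or, for Psmd7, the inactive partner of the deubiquitinase. Psmd7 had 137, 176 and 157 TPM with stearic acid, against 124, 126 and 115 TPM with vehicle (log2 0.35, limma adjusted p = 0.027). Psmd12 had 114, 151 and 138 TPM with stearic acid, against 103, 111 and 102 TPM with vehicle (log2 0.34, limma adjusted p = 0.041). Psmd3 had 113, 134 and 124 TPM with stearic acid, against 104, 91.7 and 99.0 TPM with vehicle (log2 0.32, limma adjusted p = 0.025). No groups overlapped in these 3 genes, and the gap was narrowest in Psmd12.

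Without vehicle replicate 2 or vehicle replicate 3 no lid gene passed, and without vehicle replicate 1 or stearic acid replicate 3 only Psmd8 did (limma adjusted p up to 0.0639 for Psmd8, 0.0694 for Psmd11, 0.11 for Psmd7, 0.137 for Psmd12 and 0.088 for Psmd3). Psmd12 also failed without stearic acid replicate 2, with median-of-ratios scaling and with quantile normalization. Leaving out stearic acid replicate 1 gave 7 lid risers, and leaving out stearic acid replicate 2 gave 4.

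Psmd14, the deubiquitinase of the lid, had 135, 171 and 162 TPM with stearic acid, against 128, 143 and 128 TPM with vehicle. Stearic acid replicate 1 lay below vehicle replicate 2, so the groups overlapped (log2 0.22, 95% confidence interval 0.01 to 0.44, limma adjusted p = 0.114); it passed without stearic acid replicate 1 (0.0038). Psmd13 had 176, 199 and 187 TPM with stearic acid, against 181, 194 and 169.9 TPM with vehicle, and its groups overlapped (log2 0.05, 95% confidence interval -0.12 to 0.22). Psmd6 differed by 0.12 (log2) and did not pass; it did without stearic acid replicate 1 (limma adjusted p = 0.024).

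Of the 3 chaperones that assemble the base and are not part of the finished particle, Psmd5 rose. It had 58.7, 71.9 and 64.2 TPM with stearic acid, against 53.8, 53.7 and 52.1 TPM with vehicle, with no overlap (log2 0.28, SE 0.08, limma adjusted p = 0.039). Like Psmc4, with 1 library left out it passed only when that was stearic acid replicate 1 (adjusted p up to 0.125 by limma otherwise), and it failed with median-of-ratios scaling.

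Psmd9 had 30.2, 28.2 and 27.3 TPM with stearic acid, against 26.6, 25.9 and 25.0 TPM with vehicle. The groups did not overlap, but the difference of 0.14 (log2) did not pass (limma adjusted p = 0.169). Psmd10, also known as gankyrin, had 42.6, 44.0 and 44.5 TPM with stearic acid, against 40.9, 46.1 and 43.7 TPM with vehicle, groups that overlapped fully (log2 0.01, 95% confidence interval -0.15 to 0.16).

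Of the 4 activators, 1 rose. Psme3, which encodes the nuclear activator REG gamma (gene 19192, chromosome 11, 101316213 to 101323537), had 84.9, 107 and 99.0 TPM with stearic acid, against 74.4, 72.7 and 75.9 TPM with vehicle. All stearic acid libraries lay above all vehicle libraries (log2 0.37, SE 0.09, limma adjusted p = 0.0199). It did not pass when any 1 vehicle library, or stearic acid replicate 3, was left out (adjusted p up to 0.0769 by limma).

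Psme1, an interferon-inducible subunit of the PA28 activator, had 277, 243 and 261 TPM with stearic acid, against 306, 317 and 288 TPM with vehicle. All stearic acid libraries lay below all vehicle libraries, yet the difference of -0.22 (log2, SE 0.07) missed the threshold (limma adjusted p = 0.0517); it passed with quantile normalization and without stearic acid replicate 1 (0.010). Psme2, its PA28 partner, had 181, 196 and 186 TPM with stearic acid, against 190.3, 206 and 188 TPM with vehicle, with overlap (log2 -0.05, 95% confidence interval -0.21 to 0.10).

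Psme2 has a copy, Psme2b, whose reads may be shared with it, and which had 36.4, 16.3 and 28.0 TPM with stearic acid, against 47.8, 49.8 and 52.3 TPM with vehicle. The stearic acid libraries of Psme2b lay below the vehicle libraries. Psme4, the PA200 activator, had 41.4, 38.7 and 40.6 TPM with stearic acid, against 38.2, 37.1 and 39.8 TPM with vehicle, and the groups overlapped (log2 0.07, 95% confidence interval -0.09 to 0.22).

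Summed over members, the lid stood at 1355 ± 151 TPM with stearic acid and 1102 ± 34.2 TPM with vehicle, a ratio of 1.23 (SD, n = 3 each). The base stood at 1939 ± 156 TPM with stearic acid and 1707 ± 9.65 TPM with vehicle (ratio 1.14), and the beta ring at 2122 ± 195 TPM with stearic acid and 1908 ± 129.9 TPM with vehicle (1.11). The alpha ring stood at 1625 ± 137 TPM with stearic acid and 1565 ± 108 TPM with vehicle (1.04). The activators summed to 584 to 587 TPM with stearic acid and 591 to 633 TPM with vehicle (0.957), and the 3 chaperones to 132 to 144 TPM with stearic acid and 121 to 126 TPM with vehicle. Over these members, lid, base and chaperone sums were higher and activator sums lower with no overlap between groups. Alpha and beta ring sums overlapped. The lid sum leaves out Sem1, at 465, 463 and 477 TPM with stearic acid, against 498, 574 and 436 TPM with vehicle. Sem1 was more abundant than any lid member and its groups overlapped. Sums with Sem1, or with Adrm1 of the base, were not computed, so the lid and base ratios hold for the members only. All 39 members together made up 0.708%, 0.837% and 0.784% of the library with stearic acid, against 0.691%, 0.735% and 0.678% with vehicle.

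The summed Psmc and Psmd transcripts, set over the summed core transcripts of the same library, gave 0.916, 0.922 and 0.910 with stearic acid, against 0.867, 0.797 and 0.874 with vehicle. The stearic acid values lay close together and above all vehicle values, and vehicle replicate 2 was the lowest. As a score over the members this ratio carries no test; without vehicle replicate 2 the difference between group means was 0.0452, against 0.0697 with it.

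**Figure D3:**
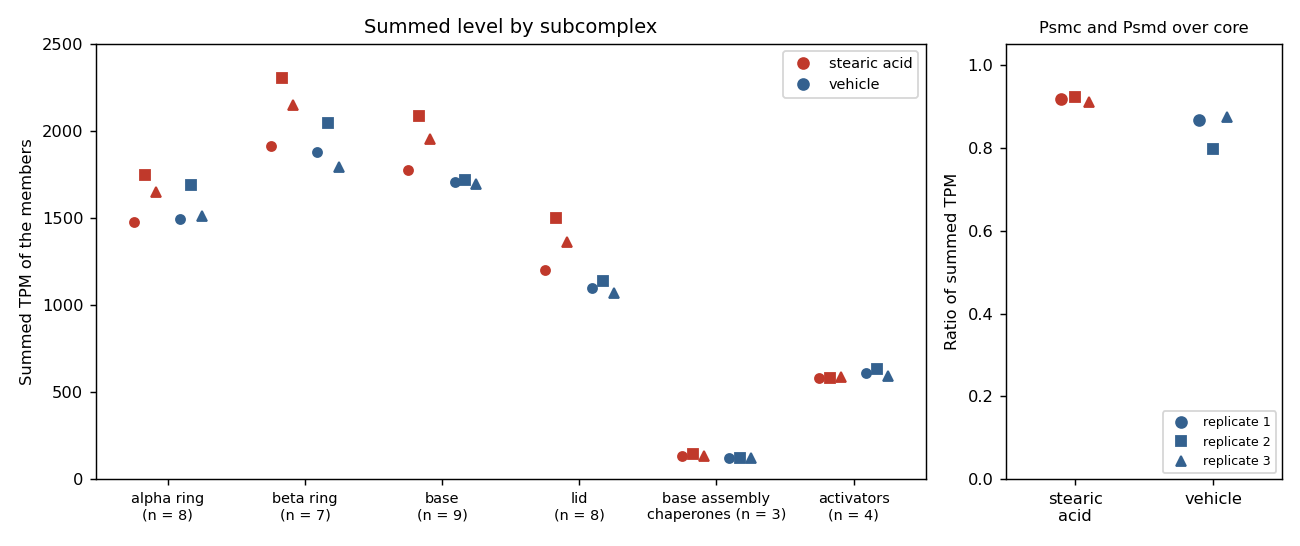
Left, summed TPM of the members of each subcomplex in each library, stearic acid left of vehicle; right, summed Psmc and Psmd TPM over summed core TPM. Points are single libraries, with symbols for replicate number. Lid and base points separate the groups, alpha and beta ring points do not, and the ratio is 0.910 to 0.922 with stearic acid against 0.797 to 0.874 with vehicle. The lid points leave out Sem1 and the base points leave out Adrm1.

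Members varied among themselves far more in the lid than in the beta ring. The coefficient of variation of mean TPM over the beta ring genes was 11.1% with stearic acid and 7.24% with vehicle, and over the lid genes it was 54.9% with stearic acid and 49.7% with vehicle. With stearic acid, beta ring means ran from 261 TPM (Psmb7) to 355 TPM (Psmb6), and with vehicle from 243 TPM (Psmb5) to 295 TPM (Psmb4). Psmb5 was thus next to the highest with stearic acid and the lowest with vehicle. By position, 8 members lie on chromosome 11, and 5 of the 10 risers are among them (Psmb6, Psmd11, Psmd12, Psmd3 and Psme3). How many of all tested genes lie or rose on that chromosome was not counted, so no role of position can be read from this.

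The libraries of a group did not stand alike. Over the 39 members the median distance from the vehicle mean was 0.00, 0.26 and 0.17 (log2) in stearic acid replicates 1, 2 and 3, and for the lid it was 0.14, 0.48 and 0.35. Replicate 1 was the lowest, replicate 3 intermediate and replicate 2 the highest stearic acid library in 34 of 39 members (87.2%), an order found in 25.3% of all tested genes. That 25.3% takes in genes that rose, fell or did not change. Over all tested genes, correlations with the vehicle libraries were 0.9905 to 0.993 for stearic acid replicate 1. They were 0.9834 to 0.9864 for replicate 3 and 0.9699 to 0.9747 for replicate 2. The libraries thus stood in the same order beyond the members, and whether the order is particular to the members was not tested. Vehicle replicate 2 was the highest vehicle library in 14 of the 15 core genes and in 12 of the 20 Psmc and Psmd genes, against 15.1% of all tested genes. Its median distance from the vehicle mean was 0.11 for the alpha ring, as for the beta ring, 0.02 for the base and 0.06 for the lid, with -0.07 over all tested genes; the part of this library in the core result was not tested.

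**Figure D4:**
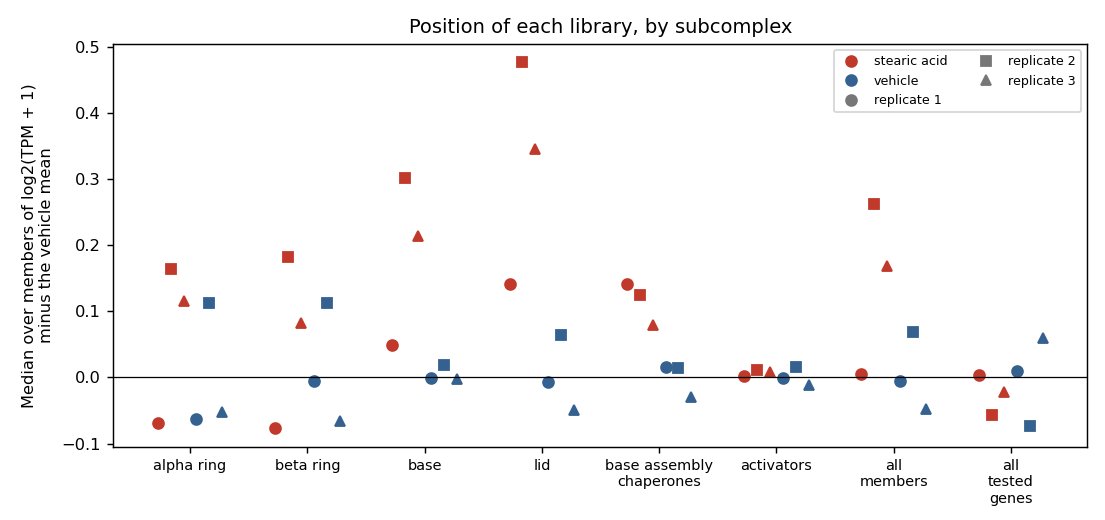
Median over members of log2(TPM + 1) minus the vehicle mean, for each library, by subcomplex and for all tested genes; stearic acid points are drawn left of vehicle points, with symbols for replicate number. Stearic acid replicate 2 is the highest library in all groups of genes except the chaperones, the activators and all tested genes, and vehicle replicate 2 is the highest vehicle library in the alpha and beta rings, the base, the lid, the activators and all members.

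The constitutive catalytic subunits were set against the immunoproteasome subunits that replace them, within each library. Psmb9, which replaces Psmb6, fell to 99.0, 72.7 and 86.4 TPM with stearic acid, against 141, 135 and 137 TPM with vehicle (log2 -0.68, SE 0.10, limma adjusted p = 0.0045). Psmb8 (log2 -0.14, limma adjusted p = 0.133) and Psmb10 (log2 -0.08, limma adjusted p = 0.446) did not pass.

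The ratio of Psmb6 to Psmb9 was 3.27, 5.28 and 4.15 with stearic acid, against 1.97, 2.12 and 1.87 with vehicle, a 2.09-fold difference. The ratio of Psmb5 to Psmb8 was 0.925, 1.30 and 1.09 with stearic acid, against 0.718, 0.758 and 0.683 with vehicle, a 1.52-fold difference. In both pairs all stearic acid libraries lay above all vehicle libraries, with p = 0.1 in each by a two-sided exact permutation test, the lowest value open to 3 libraries against 3 (0.133 adjusted over the 4 ratios computed).

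The ratio of Psmb7 to Psmb10 was 2.62, 3.52 and 3.25 with stearic acid, against 2.58, 3.08 and 2.78 with vehicle. The groups overlapped (exact permutation p = 0.4). Among the activators, Psme3 over Psme1 was 0.307, 0.439 and 0.379 with stearic acid, against 0.243, 0.229 and 0.264 with vehicle, a 1.52-fold difference without overlap (exact permutation p = 0.1). No ratio could reach 0.05 in this design.

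**Figure D5:**
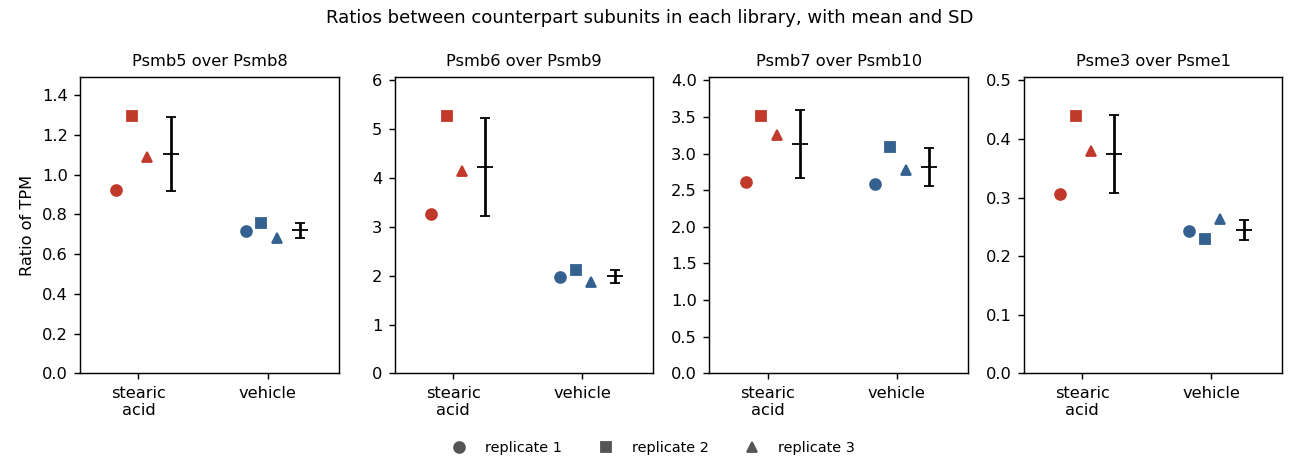
Ratio of TPM between counterpart subunits in each library, stearic acid left and vehicle right, with mean and SD as the black bar. The groups are apart for Psmb5 over Psmb8, Psmb6 over Psmb9 and Psme3 over Psme1, and overlap for Psmb7 over Psmb10.

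Around the proteasome, proteins that bind it changed in part. Of 12 listed, 6 rose and none fell, with a median of 0.24 (log2), where 12.8% of all tested genes rose and 11.9% fell. At an unadjusted p under 0.05, 7 were higher and none lower (limma), beside 2232 higher and 2439 lower of all 11551 tested genes. Zfand2a, an arsenite-inducible proteasome-associated protein, had 126, 142 and 128 TPM with stearic acid, against 91.3, 84.6 and 92.4 TPM with vehicle (log2 0.55, limma adjusted p = 0.0025). Adrm1, the ubiquitin receptor of the base that the name rule does not cover, had 117, 152 and 132 TPM with stearic acid, against 96.0, 86.2 and 89.5 TPM with vehicle (log2 0.55, limma adjusted p = 0.0076).

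Neither gene overlapped between groups. The others were the shuttle factors Rad23b (log2 0.53), Ubqln4 (log2 0.31) and Ubqln1 (log2 0.29) and the ubiquitin-binding protein Zfand5 (log2 0.47), named here after their values were seen. Leaving out vehicle replicate 2 left 1 riser, Zfand2a (Adrm1 then had a limma adjusted p of 0.054), and leaving out vehicle replicate 3 left 3. Among the 8 assembly chaperones and inhibitors tested beside the members, such as Pomp, which matures the core, none passed (limma; none at an unadjusted p under 0.05 either, and 1 with stearic acid replicate 1 left out), and their median was 0.07.

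Among 11 genes of ubiquitin and substrate delivery, 1 rose and 1 fell, with a median of 0.10 (log2). The riser made up 9.09% of this list, beside 12.8% of all tested genes that rose and 11.9% that fell. Vcp, the ATPase that extracts ubiquitinated proteins, had 471, 529 and 496 TPM with stearic acid, against 426, 395 and 419 TPM with vehicle (log2 0.27, limma adjusted p = 0.024). Rps27a, which encodes ubiquitin fused to a ribosomal protein, had 1606, 1611 and 1620 TPM with stearic acid, against 1924, 2428 and 1809 TPM with vehicle (log2 -0.34, limma adjusted p = 0.043). Vcp lay higher and Rps27a lower with no overlap, and vehicle replicate 2 stood apart in Rps27a.

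With 1 library left out, Vcp passed only when that was stearic acid replicate 1 (adjusted p up to 0.0902 by limma otherwise). Rps27a passed only when it was stearic acid replicate 1 or 2 (up to 0.113 otherwise), and it failed with RPKM, median-of-ratios scaling and quantile normalization. The risers of this list then numbered 4 with RPKM and 3 with either scaling, and 4 with stearic acid replicate 1 left out.

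Among 11 regulators of proteasome gene transcription, 4 rose (36.4%, beside 12.8% of all tested genes) and none fell, with a median of -0.06 (log2). The 36.4% includes Maff, which was tested only because of its level in the stearic acid group. At an unadjusted p under 0.05, 4 were higher and 1 lower (limma), beside 2232 higher and 2439 lower of all 11551 tested genes. The lower gene was Ngly1, whose groups did not overlap (log2 -0.28, limma adjusted p = 0.066). Nfe2l1 had 127, 146 and 134 TPM with stearic acid, against 105, 91.0 and 106 TPM with vehicle, with no overlap (log2 0.43, SE 0.08, limma adjusted p = 0.011; 0.051 without vehicle replicate 2). Nfe2l2 had 152, 138 and 146 TPM with stearic acid, against 156, 153 and 160.45 TPM with vehicle, lower without overlap but short of the threshold (log2 -0.11, limma adjusted p = 0.242).

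The remaining risers encode small MAF proteins, which pair with NRF1 and NRF2 on DNA. Maff had 1.75, 3.16 and 2.66 TPM with stearic acid, against 0.826, 0.986 and 0.865 TPM with vehicle (log2 0.88, limma adjusted p = 0.0067). Its vehicle values were all under 1 TPM, so it passed the filter of 1 TPM only through the stearic acid group. With a filter of 5 TPM Maff was not tested, and the list had 3 risers. Mafk had 22.5, 22.1 and 20.6 TPM with stearic acid, against 16.4, 15.0 and 16.7 TPM with vehicle (log2 0.42, limma adjusted p = 0.0092). Mafg had 56.7, 64.5 and 59.8 TPM with stearic acid, against 51.2, 44.6 and 51.5 TPM with vehicle (log2 0.29, limma adjusted p = 0.035). All 3 were higher in every stearic acid library than in any vehicle library. With 1 library left out, Mafg passed only when that was stearic acid replicate 1 (adjusted p up to 0.11 by limma otherwise). Leaving out vehicle replicate 2 left 2 risers, Maff and Mafk, and 1 regulator fell with median-of-ratios scaling or quantile normalization and 3 with stearic acid replicate 1 left out. These are transcript levels, and neither proteasome activity nor assembled particles were measured in these libraries.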

How the data were processed

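Polyadenylated RNA of 6 libraries was compared, 3 with stearic acid and 3 with vehicle. Per the file headers, the authors deposited a TPM value and an RPKM value per gene; no counts were used. The submitters' processing notes name DRAGEN and the builds GRCm38 and mm10 and give no version; libraries were made with a stranded TruSeq mRNA kit, per the labels' protocols. The sources used here give neither annotation nor counting rule nor use of strand.

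Log2(TPM + 1) of the 11551 genes averaging 1 TPM or more was fitted with limma 3.58.1 (limma-trend, R 4.3.3), treatment as the only term, Benjamini-Hochberg adjustment over all of them and a threshold of 0.05. The fit was also run on simulated data with noise drawn independently for each gene and library. Such data lack shifts of a whole library, so that run cannot show how such shifts affect the counts. Fold changes on this scale understate low genes. Ratios were tested by exact permutation (scipy 1.17.1). Depth was recovered by matching RPKM steps to annotated lengths: 37.8% to 39.04% of 549 to 585 checked values per library came out whole within 0.02 reads, so no counts were rebuilt.

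Members and lists were chosen with earlier results of these data known. Named with all values were the catalytic subunits, Psmd14, the activators and, per subcomplex, the 2 genes with the smallest and the 1 with the largest p; of lists, the 2 called genes with the smallest p, or all where 5 or fewer were called, with Nfe2l1 and Nfe2l2 always. Psmd3, Psmd7 and Psmd12 were added after their values were seen. All 40 gene numbers matched RefSeq GRCm38.p6, and listed genes under older symbols were matched by gene number; Paaf1 was not analysed here. Alternatives were other units, pseudocounts (0.1, 0.5), filters (none, 5 TPM), scalings, a replicate block and leaving out libraries; leaving out both libraries numbered 2 was chosen after seeing the data.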

Additional observations from a re-analysis of the deposited data

How the results depend on the processing

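The count of 10 risers was 12 with the replicate block, 13 with RPKM and 9 with median-of-ratios scaling (7 shared with the 10). It was 11 with quantile normalization (9 shared) and 10 with either other pseudocount or a filter of 5 TPM. With no filter it was 0, and it was 0 to 21 in the fits that left out 1 library. Of all tested genes 14.2% rose with the block, 17.2% with RPKM, 15% with median-of-ratios scaling and 14.5% with quantile normalization. That share was 12.8% with either other pseudocount, 13.6% of 9566 genes with the filter of 5 TPM and 3.11% of 21632 genes with no filter. The count of fallers was 0 throughout except 1 (Psme1) with quantile normalization, and 0 to 1 in the fits that left out 1 library. Of the 11551 tested genes 2856 were called, and 550 to 5010 in the fits that left out 1 library. With no filter 1027 of 21632 genes were called (genes listed at 0 in every library left out). Without both libraries numbered 2 the members higher were 4 and the genes called 1732 (6.66% of all tested genes higher). The cause of these shifts was not tested. The replicate numbers gave correlations of deviations of 0.0703, 0.288 and 0.0387 for pairs 1, 2 and 3. Not every library correlated best with its own number. The labels do not say whether libraries of the same number are paired, and these values cannot decide it. The block called 3638 genes, against 2856 without it. With it there were 12 risers (Psmd1 and Psmd14 beside the 10) and 2 fallers among the 11 regulators, where there were none without it. Within replicate numbers the permutation tests of the ratios gave p = 0.25, the smallest 3 pairs allow.

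Members near 0 changed sign. With RPKM, Psmb2, Psma1 and Psmb1 differed by 0.0364, 0.0147 and 0.0342, with median-of-ratios scaling Psmb2 and Psmb1 by 0.0152 and 0.0129, and without both libraries numbered 2 by 0.0039 and 0.0123; with quantile normalization Psma5 differed by -0.0086 (log2, none past the threshold). In the fits that left out 1 library, Psmb2 ran from -0.0527 to 0.0642, Psma1 from -0.0711 to 0.0323, Psmb1 from -0.0431 to 0.0512, Psma5 from -0.0499 to 0.0733, Psmb3 from -0.0308 to 0.130, Psma6 from -0.0024 to 0.113, Psma8 from -0.0158 to 0.132, Psmd10 from -0.0380 to 0.0456 and Psmd13 from -0.00026 to 0.0934. With 3 libraries per group, differences of this size could not be resolved.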
